A study of Drosophila melanogaster with 3 samples.

Results

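The peaks described here are intergenic peaks of the transcription factor Blimp-1 that lie near genes. They come from chromatin immunoprecipitation followed by sequencing (ChIP-seq) of whole Drosophila melanogaster embryos aged 10 to 12 h, with 3 biological replicates of 1 group. All embryos carried a transgene, stably expressed, that encodes Blimp-1 fused at its C-terminus to green fluorescent protein (GFP), and the chromatin was sonicated to 200 to 800 bp. The labels differ on the antibody: their description field names one against GFP, and their antibody field names Blimp-1. The age is that of the source label, since the age field holds a number that is no age in hours. The promoter that drives the transgene is not given in the sources used here, and the whole embryo mixes all cell types, so a peak cannot be assigned to a tissue. Members were taken from the deposited list of peaks thresholded by their irreproducible discovery rate (IDR), a measure of how well replicates agree on a peak's rank. A member has its summit in no annotated transcript, more than 500 bp and at most 5 kb from the nearest transcription start site (TSS) of any gene, with pseudogenes and transposable elements not counted as genes. This rule found 1204 of 9515 peaks, or 12.7% (Wilson 95% interval 12.0 to 13.3%), and 67.3% of the 1788 intergenic peaks outside promoters. The other classes were 4471 peaks in introns, 584 intergenic peaks beyond 5 kb, 269 peaks in exons and 2987 peaks in promoters, that is, within 500 bp of a TSS. The same rule applied to the 9515 strongest peaks of each replicate found 1215, 1152 and 1137 peaks, a mean of 1168 ± 41.4 (SD, n = 3). Strength is the signal value in the authors' lists. Its scale is not defined here, so it serves for ranks and descriptions inside 1 list.

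Blimp-1 is the fly homologue of PRDM1, a zinc finger protein that in mammals represses transcription and directs the differentiation of several blood and epithelial lineages. In the fly it is induced by the steroid hormone ecdysone and is known for delaying the expression of the nuclear receptor gene ftz-f1, and in the embryo for its part in shaping the tracheae and the cuticle. Intergenic sequence within a few kilobases of a gene holds many of the enhancers and silencers of the compact fly genome. The PRDM1 family binds a short GAAAG word, written here as the Blimp-1 site, AGTGAAAG or AGCGAAAG on either strand.

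The 10 strongest members that hold the Blimp-1 site within 50 bp of the summit show the word that the sequence results turn on. Each line gives the gene with the nearest TSS and the 101 bases centred on the summit, read 5′ to 3′ from the Release 6 genome (dm6, RefSeq) on the strand that carries the site, with the site in capitals. The windows of CG10597 (chrX:17229659-17229759), lncRNA:CR45710 (chrX:18675516-18675616), Eaf6 (chr3L:5608936-5609036), CG32645 (chrX:13136986-13137086), CG6106 (chrX:18357942-18358042) and Gbs-76A (chr3L:19293424-19293524) are on the minus strand. Those of CG5639 (chr3R:27597430-27597530), lncRNA:CR43801 (chr2L:6075472-6075572), lncRNA:CR45555 (chr3R:31477317-31477417) and nyo (chr3R:31542065-31542165) are on the plus strand.
CG10597: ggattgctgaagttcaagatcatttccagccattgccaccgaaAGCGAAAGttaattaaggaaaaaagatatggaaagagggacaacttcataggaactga
lncRNA:CR45710: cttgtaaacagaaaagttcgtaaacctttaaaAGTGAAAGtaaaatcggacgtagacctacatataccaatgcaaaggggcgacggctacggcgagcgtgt
CG5639: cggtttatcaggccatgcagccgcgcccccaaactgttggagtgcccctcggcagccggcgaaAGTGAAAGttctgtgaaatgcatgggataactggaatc
Eaf6: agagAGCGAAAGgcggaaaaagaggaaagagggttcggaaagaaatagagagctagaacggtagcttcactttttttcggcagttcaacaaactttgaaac
CG32645: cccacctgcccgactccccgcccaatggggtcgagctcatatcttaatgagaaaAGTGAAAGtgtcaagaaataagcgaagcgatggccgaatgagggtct
CG6106: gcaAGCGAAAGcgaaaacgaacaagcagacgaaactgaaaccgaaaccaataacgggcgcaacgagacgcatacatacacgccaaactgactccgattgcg
lncRNA:CR43801: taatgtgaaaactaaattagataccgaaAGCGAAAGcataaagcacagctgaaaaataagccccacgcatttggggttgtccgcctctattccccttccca
Gbs-76A: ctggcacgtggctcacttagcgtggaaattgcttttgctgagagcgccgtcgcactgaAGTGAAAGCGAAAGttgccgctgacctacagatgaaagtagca
lncRNA:CR45555: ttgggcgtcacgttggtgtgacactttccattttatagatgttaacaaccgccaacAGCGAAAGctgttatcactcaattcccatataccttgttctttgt
nyo: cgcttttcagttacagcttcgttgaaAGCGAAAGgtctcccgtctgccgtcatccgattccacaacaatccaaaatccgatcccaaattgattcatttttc
The T form, AGTGAAAG, stands in lncRNA:CR45710, CG5639 and CG32645, and in Gbs-76A the T form overlaps a C form, AGCGAAAG. The other windows hold the C form.

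The windows of the 3 strongest members of all, by contrast, hold no Blimp-1 site. They are shown for comparison, for Blimp-1 (chr3L:5627900-5628000, plus strand), Hr38 (chr2L:20716167-20716267, plus strand) and CG34342 (chr3L:5512141-5512241, minus strand), where capitals mark the shorter word GAAAGT.
Blimp-1: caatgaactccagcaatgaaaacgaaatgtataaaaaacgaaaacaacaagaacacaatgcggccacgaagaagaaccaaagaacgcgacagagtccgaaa
Hr38: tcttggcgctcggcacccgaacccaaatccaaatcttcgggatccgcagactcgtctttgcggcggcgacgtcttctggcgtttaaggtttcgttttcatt
CG34342: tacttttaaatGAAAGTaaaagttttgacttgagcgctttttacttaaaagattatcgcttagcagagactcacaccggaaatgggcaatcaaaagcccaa

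The strongest member lay upstream of the Blimp-1 gene itself, and the gap between genes that held the most members was the one that ends at this gene. The peak (chr3L:5627541-5628851) had a summit that stood 3033 bp before the closest Blimp-1 TSS, a signal of 12939.7, and rank 6 in the whole list. It ranked 4, 12 and 12 in replicates 1, 2 and 3, so every replicate placed it among its strongest 12 peaks. A further 2 members were nearest to Blimp-1, with summits 4289 and 1332 bp upstream, signals of 287 and 237, and ranks of 7097 and 8469. Their ranks were 7663, 9111 and 6494, and 5955, 11507 and 9836 in the replicates, far below the first. None of the 3 held the Blimp-1 site within 50 bp of its summit, which is what holding the site means here and below. That window covers only part of each interval, and the strongest spans 1311 bp. No member was nearest to ftz-f1.

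The gap of 22682 bp between Eaf6, which encodes a subunit of histone acetyltransferase complexes, and Blimp-1 held 8 members, the highest number in any of the 788 gaps with a member. This gap was singled out after its values were seen. Counts per gap are not scaled by allowed sequence, and the much shorter gap of 5764 bp between dyl and Claspin held 6 members. On the Eaf6 side, a member at chr3L:5608555-5609557 had a signal of 4522 and rank 115 (62, 158 and 224 in the replicates), with its summit 686 bp upstream of Eaf6, and it held the C form of the site. A second, at chr3L:5611367-5612398, had a signal of 3023 and rank 271 (447, 223 and 187 in the replicates), and another summit in the same peak interval had a signal of 638. The remaining 2 near Eaf6 had signals of 252 and 240 and were not matched in replicate 1. All 8 were more than 1 kb from Blimp-1, and 5 of them lay 18863 bp or more upstream of it. The rule admits only summits at most 5 kb from a TSS, so the middle of this gap could hold no member. The grouping of members at either end is thus set by the rule, and other peaks in the middle are not described here.

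**Figure D1:**
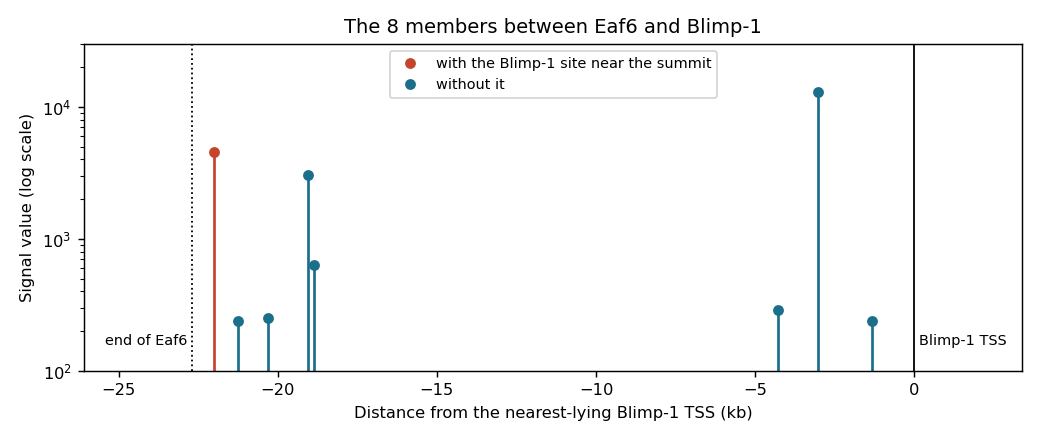
Signal value (vertical axis, log scale) of the 8 members in the gap between Eaf6 and Blimp-1, by distance from the nearest-lying Blimp-1 TSS in kb (horizontal axis); red marks the member with the Blimp-1 site. The members near Eaf6 have signals up to 4522, and those near Blimp-1 are led by the peak with a signal of 12939.7. The middle of the gap is more than 5 kb from any TSS, so by the rule it could hold no member.

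The other 9 of the 10 strongest members found in all 3 replicates were nearest to 8 genes, of which 3 are noncoding. The member nearest to Hr38, which encodes a nuclear receptor of the NR4A family, had a signal of 10578 at chr2L:20715807-20716704, 1629 bp upstream, and ranked 15, 10 and 11 in the replicates. The member nearest to CG34342 had a signal of 10134.5 at chr3L:5511860-5512527, 1331 bp upstream, and ranked 17, 17 and 9, with no other summit of the list closer than 36582 bp. The replicates thus placed both among their strongest 17 peaks. The member downstream of CG10597 had a signal of 7130 and ranked 51, 22 and 28. A pair of members upstream of lncRNA:CR44810 on chromosome arm 2R, 817 and 3312 bp away, had signals of 6524 and 5697 and ranked 37, 52 and 58, and 75, 53 and 70. The member nearest to RasGAP1, which encodes a GTPase-activating protein of Ras, had a signal of 5832 and ranked 70, 67 and 47. Those nearest to lncRNA:CR44538, CG31668 and lncRNA:CR45710 had signals of 5549.9, 5239 and 5019. CG31668 varied most among these 10 between replicates, with ranks of 147, 58 and 45, and 2 of the 10, CG10597 and lncRNA:CR45710, held the Blimp-1 site.

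Members were of middling strength. Their signals ran from 208 to 12939.7 with a median of 409 (quartiles 277 and 702), against medians of 420 in introns, 390.5 in exons, 367 beyond 5 kb and 485 in promoters. Of the strongest 10% of the list, 951 peaks, 91 were members. That was 7.56% of members, against 8.21% of all other peaks outside promoters (odds ratio 0.914, two-sided Fisher's exact p = 0.483), a difference smaller than counting error. In the replicates the shares were 7.90 ± 0.142% and 8.19 ± 0.0808% (SD, n = 3). Members were more often in the strongest 10% than peaks beyond 5 kb, at 7.56% against 4.11% (odds ratio 1.91, adjusted p = 0.0106), and less often than promoter peaks, at 7.56% against 14.2% (odds ratio 0.496, adjusted p = 3.81e-09; Fisher's exact tests, Benjamini-Hochberg over 4 comparisons). The replicate shares did not overlap, at 7.90 ± 0.142% for members against 4.60 ± 0.430% beyond 5 kb and 13.8 ± 0.280% in promoters. Against intron peaks, at 8.70%, the difference did not pass (odds ratio 0.858, adjusted Fisher's exact p = 0.294). With TSSs of protein-coding genes only, or with an upper distance limit of 2 kb, the odds ratio against peaks outside promoters lay on the other side of 1, at 1.14 and 1.16. Only 1 member was among the strongest 10 peaks of the list, 12 were among the strongest 100, and 52 among the strongest 500.

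The replicates found nearly all members. A summit within 100 bp was present in all 3 replicate lists for 1113 members (92.4%), against 91.3% of the other peaks (odds ratio 1.17, Fisher's exact p = 0.186). Among the 9515 strongest peaks of each replicate, 841 members (69.9%) were matched in all 3, 225 in 2, 121 in 1 and 17 in none. Ranks of matched members correlated between replicates, with Spearman's rho of 0.843 for replicates 1 and 2, 0.821 for 1 and 3, and 0.891 for 2 and 3 (1136, 1133 and 1146 members, which share libraries, so no p is given). The pooled list from which the IDR list was cut holds the reads of all 3 replicates, so a match in a replicate is no independent repeat. The IDR list also keeps peaks because replicates agree on their rank, so high matching and rank correlation are partly built into it.

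Most members lay upstream of their nearest gene, as does most of the sequence that the rule allows. The median distance to the nearest TSS was 1886 bp (quartiles 1064 and 3200, range 504 to 4998), and distance was nearly unrelated to signal (Spearman's rho -0.0667, n = 1204, no p given). Of the members 821 (68.2%, interval 65.5 to 70.8%) were upstream and 383 downstream, against 64.4% upstream among all bases that satisfy the rule, 16.2 Mb or 12.1% of the chromosome arms. The interval for members lies above the 64.4% of allowed bases, a difference that was not tested. Peaks of the pooled list below the IDR threshold had 67.3% upstream (1989 of 2957; odds ratio 1.04, two-sided Fisher's exact p = 0.584), and no difference of members from these peaks was detectable. In the replicates 68.9 ± 0.494% were upstream (SD, n = 3).

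Per megabase of allowed sequence, members were densest close to the gene. The whole class had 74.1 members per Mb, against 28.5 peaks per Mb of intergenic sequence beyond 5 kb, 84.6 in introns and 166.5 in promoters. Upstream, the density was 94.1 per Mb at 0.5 to 1 kb, 87.0 at 1 to 2 kb, 62.3 at 2 to 3 kb, 68.0 at 3 to 4 kb and 71.9 at 4 to 5 kb. Downstream it was 99.4, 69.8, 62.5, 68.7 and 45.8 per Mb in the same bins. In the replicates the nearest bin had 98.4 ± 4.56 per Mb upstream and 92.2 ± 7.23 downstream, and the farthest 64.4 ± 3.43 and 41.1 ± 1.91 (SD, n = 3). Every replicate had its nearest bin above its farthest on both sides. At the limits of the rule, the summits just inside 500 bp, and so no members, were 499 bp from CG34038 and 499 bp from scrib (signals 2345 and 1114), and those just past it were 504 bp from E(spl)m2-BFM and 507 bp from CG3348 (948 and 614). At 5 kb the last members were 4985 bp from rpr and 4998 bp from snky (348 and 1823), and the first peaks beyond were 5003 bp from Tollo and 5019 bp from lncRNA:CR46197 (420 and 272).

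**Figure D2:**
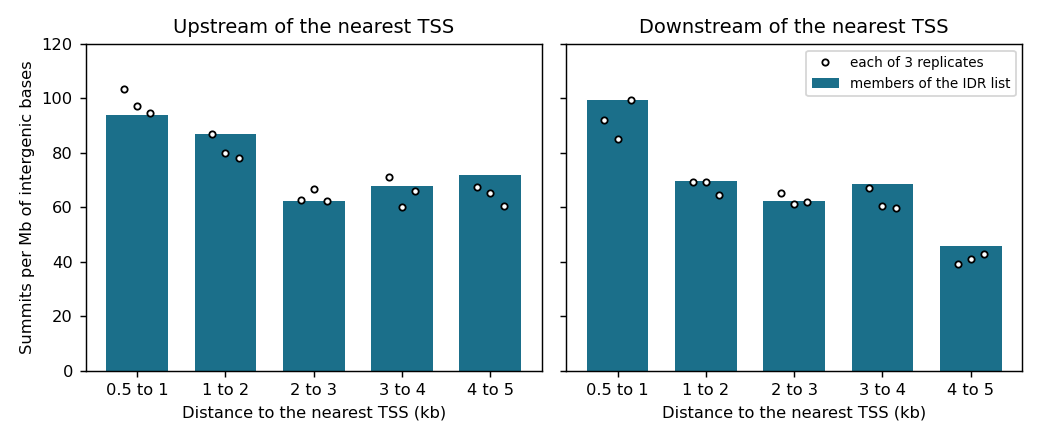
Summits per Mb of intergenic sequence allowed by the rule (vertical axis) by distance to the nearest TSS in kb (horizontal axis), upstream on the left and downstream on the right; bars are members of the IDR list and circles are the strongest 9515 peaks of each replicate. The bins at 0.5 to 1 kb reach 94.1 and 99.4 per Mb, and the bins at 4 to 5 kb reach 71.9 and 45.8.

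Members were also spread unevenly over gaps and chromosome arms. Gaps between divergent genes, where both flanking genes start, held 377 members (31.3%), against 26.6% of the allowed bases, which is 87.2 per Mb. Tandem gaps held 604 members (70.4 per Mb) and convergent gaps 223 (67.6 per Mb). Arm 3L held 362 members, or 105 per Mb of allowed sequence, against 70.2 on 2L, 66.7 on 2R, 65.8 on 3R and 59.9 on X. The replicates had 100 ± 3.12 per Mb on 3L, and the next highest arm, 2L, had 68.7 ± 1.86 (SD, n = 3). Members made up 16.4% of all IDR peaks on 3L, against 14.6% on 2L, 11.6% on 3R, 11.3% on 2R and 8.30% on X. Peaks of the same class below the threshold were also densest on 3L, at 226 per Mb. There X, the lowest of the large arms by members per Mb, came next at 186 per Mb. The other large arms had 156 to 176 per Mb below the threshold, and no test of arms was made. Chromosome 4 held 4 members. Many members came in company: 358 (29.7%) had another IDR summit within 1 kb, 927 (77.0%) within 5 kb, and 132 shared part of their peak interval with another peak, so neighbouring members are not independent. A single member lay in an annotated transposable element, 0.0831% (interval 0.0147 to 0.469%), against 6.37% of the allowed bases. None lay in a pseudogene, which allows up to 0.318% (Wilson), against 0.730% of bases. The lists do not show where in repeated sequence a peak could be called, so these shares are no measure of avoidance.

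The Blimp-1 site was concentrated at the summits. It stood within 50 bp of the summit in 80 members (6.64%, interval 5.37 to 8.19%), against 10 (0.831%) in equally wide windows whose centre lay 500 bp to the right, a ratio of 8.0 (two-sided exact McNemar p = 1.05e-14). The replicates gave ratios of 8.45, 7.40 and 4.93, a mean of 6.93 ± 1.81 (SD, n = 3). Of 101-bp tiles over all allowed sequence 1.09% held the site. The T form was in 50 members and 5 flanks, and the C form in 32 members and 5 flanks. The windows held 85 copies, 53 of the T form and 32 of the C form, with their centres a median of 16.5 bp from the summit and 66 of them within 25 bp. Density was 0.748 sites per kb within 50 bp of the summit and 0.120 per kb beyond 250 bp. The overlapping word GAAAGTGA was in 68 members and 7 flanks, a ratio of 9.71, and 130 members (10.8%) held at least 1 of the 3 words AGTGAAAG, AGCGAAAG and GAAAGTGA, against 16 flanks (1.33%). Most members held none of them.

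**Figure D3:**
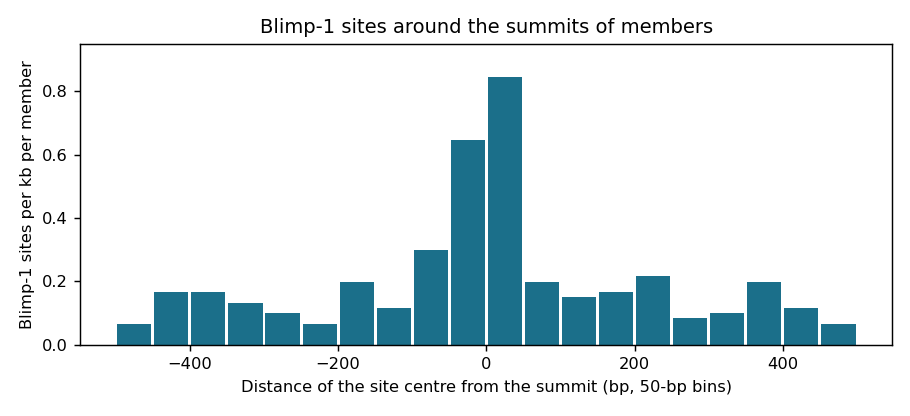
Blimp-1 sites (AGTGAAAG or AGCGAAAG, either strand) per kb per member (vertical axis) in 50-bp bins of distance from the summit in bp (horizontal axis). The 2 bins next to the summit hold 39 and 51 sites, and every other bin holds 18 or fewer.

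Stronger members held the site more often. It was present in 36 of the 301 members in the strongest 25% (12.0%), against 44 of the other 903 (4.87%; odds ratio 2.65, two-sided Fisher's exact p = 7.73e-05). In 4 equal parts by signal, from strongest to weakest, the shares were 12.0%, 5.98%, 4.65% and 3.99%. The replicates gave 11.1 ± 2.02%, 6.25 ± 1.90%, 5.03 ± 0.566% and 4.45 ± 1.55% (SD, n = 3). The strongest part was the highest in all 3 replicates, and the others overlapped among themselves. The median GC content near the summit was 37.6% in the strongest part and 32.7% in each of the others, and its part in the difference was not tested.

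Within 50 bp of the summit, the share of members with the site did not differ detectably from the share in introns, beyond 5 kb or in promoters, and exon peaks were not tested. It was 6.64% in members against 7.09% in introns (odds ratio 0.933, adjusted p = 0.611), 4.45% beyond 5 kb (odds ratio 1.53, adjusted p = 0.105) and 4.92% in promoters (odds ratio 1.38, adjusted p = 0.0860; Fisher's exact tests, Benjamini-Hochberg over 3 comparisons). The replicates had 6.72 ± 0.832% in members, 6.43 ± 0.644% in introns, 5.02 ± 0.804% beyond 5 kb and 4.71 ± 0.882% in promoters (SD, n = 3). The differences from peaks beyond 5 kb and from promoters passed in narrower and in wider windows. Within 25 bp of the summit the odds ratio was 2.18 against peaks beyond 5 kb and 1.58 against promoters, both with an adjusted Fisher's exact p of 0.0141, and within 100 bp it was 1.66 (adjusted p = 0.0355) and 1.32 (adjusted p = 0.0428). The difference from promoters also passed in the stronger 50% of the list (odds ratio 1.69, adjusted Fisher's exact p = 0.0130), with TSSs of protein-coding genes only (1.46, adjusted p = 0.0449) and without replicate 2 (1.54, adjusted p = 0.0221), and so in 5 of 7 alternatives. The site was as frequent upstream of the nearest gene (56 of 821, 6.82%) as downstream (24 of 383, 6.27%; odds ratio 1.09, Fisher's exact p = 0.804) within counting error. It was in 7.30% of members nearest to a protein-coding gene and 5.30% of the others (odds ratio 1.41, Fisher's exact p = 0.219).

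**Figure D4:**
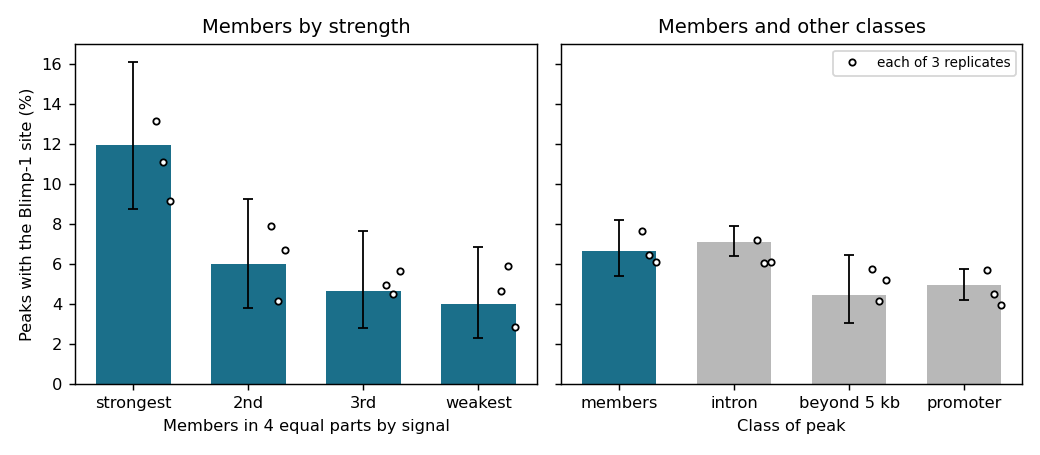
Percentage of peaks with the Blimp-1 site within 50 bp of the summit (vertical axis), for members in 4 equal parts by signal (left) and for members and other classes of peak (right); bars are IDR peaks, error bars are Wilson 95% intervals and circles are the 3 replicates. The strongest part stands at 12.0% and the weakest at 3.99%, and the 4 classes drawn lie between 4.45% and 7.09%.

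Among the 10 strongest members with the site, whose windows are printed above, signals ran from 7130 next to CG10597 to 2268 next to nyo. The member nearest to CG5639 had a signal of 4545 and ranked 94, 104 and 144 in the replicates. CG32645 had 3686 (ranks 187, 148 and 184), CG6106 had 3598 (127, 263 and 279) and lncRNA:CR43801 had 3267 (161, 285 and 318). Gbs-76A, which encodes a glycogen-targeting subunit of protein phosphatase 1, had 2707 (284, 343 and 405), and its window is the only one of the 10 with a pair of sites. The member 4326 bp downstream of lncRNA:CR45555 had 2459 (378, 389 and 439). The member 917 bp upstream of nyo, which encodes a zona pellucida domain protein of the apical matrix, ranked 488, 415 and 484. All 10 were among the strongest 488 peaks of every replicate.

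None of the 17 other patterns tried passed the test of summit against flank. The share of patterns past an adjusted p of 0.05 was 0.0% in the higher and 0.0% in the lower direction (exact McNemar tests, Benjamini-Hochberg over 17), and 0 had an unadjusted p below 0.05, the smallest being 0.0928. They were searched on both strands. The homeodomain core TTAATTA was in 69 summit windows and 50 flanks, GATA words (A or T before and A or G after the 4 letters GATA) in 246 and 216, the E-box CAGCTG in 30 and 45, and the POU word ATGCAAAT in 35 and 27. TCF words (CTTTGAA or CTTTGAT) were in 53 and 59, the STAT92E word TTCNNNGAA in 32 and 42, the ecdysone receptor word AGGTCA in 28 and 26, CACACACA in 24 and 22, and the Trachealess and Tango word TACGTG in 23 and 17. AP-1 words (TGACTCA or TGAGTCA) were in 11 and 10, the GAGA factor word GAGAGAG in 10 and 16, and the Zelda word CAGGTAG in 8 and 4. DREF (TATCGATA, 4 and 1), Grainy head (AACCGGTT, 1 and 2), Ftz-F1 (CAAGGTCA, 3 and 4), M1BP (GGTCACAC, 2 and 1) and Tramtrack (GGTCCTGC, 0 and 3) were too rare for a difference to be detectable at this number of members. TATCGATA was in 0.332% of members against 1.44% of promoter peaks, and GGTCACAC in 0.166% against 1.10%, and these differences were not tested.

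Summits were rich in A and T. The median GC content within 50 bp was 33.7%, against 41.6% in the right and 42.6% in the left flank and 41.6% in tiles of allowed sequence. Summits in introns had 34.7%, beyond 5 kb 31.7% and in promoters 34.7%. The replicates gave 34.3 ± 1.14% for members (SD, n = 3). Of 2080 words of 6 letters, with a word and its reverse complement counted as 1, 150 (7.21%) were more frequent at the summit and 177 (8.51%) less frequent (exact McNemar tests, adjusted p below 0.05). Of the higher words 33 were made of A and T alone, and of the lower words none, so base composition and particular words cannot be told apart by these counts. All 6 of the 6-letter words inside AGTGAAAG and GAAAGTGA were among the higher ones. With each replicate left out in turn, keeping only members matched among the strongest peaks of both others, 96, 78 and 70 words were higher and 98, 78 and 61 lower without replicates 1, 2 and 3.

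By ratio of summit to flank windows, with 0.5 added to each count, the leading words were GCGCTA (29 and 7 windows, ratio 3.93), ACTTTC (246 and 78, 3.14), AGTGAA (159 and 58, 2.73), CTTTCA (208 and 78, 2.66) and ACATAG (42 and 17, 2.43). Apart from GCGCTA and ACATAG, these are parts of the 8-letter words or of their reverse complements. ACTTTC, whose reverse complement is GAAAGT, was in 20.4% of members and 7.32% of tiles, and its ratio was 3.07 ± 0.372 in the replicates (SD, n = 3). GCGCTA was in 2.41% of members but 1.55% of tiles, with a ratio of 2.15 ± 0.582 in the replicates. ACATAG was in 3.49% of members and 2.93% of tiles, with a ratio of 1.86 ± 0.162 in the replicates. The most depleted words were CCAGGA (6 and 47 windows, ratio 0.137), CAGGAG (5 and 35, 0.155), CCAGGC (7 and 46, 0.161), CACGTG (4 and 23, 0.191) and CCGGGA (4 and 19, 0.231). All 5 hold 4 or more letters G and C.

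Members were nearest to 866 genes, of which 607 were protein-coding. That is 4.35% of 13945 protein-coding genes, and 10.1% of the 6019 that are the nearest gene of any allowed sequence. Protein-coding genes were nearest to 808 members (67.1%, against 69.4% of allowed bases), noncoding RNA genes to 362 (30.1%, against 28.8%), tRNA genes to 31 (2.57%, against 1.46%) and snoRNA genes to 3. Of the 866 genes 635 had 1 member, 161 had 2, 45 had 3 and 25 had 4 or more. A promoter peak was also present at 188 of the 607 (31.0%), against 16.4% of the other 5412 protein-coding genes with allowed sequence. The nearest gene is a position, not a measured target.

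Gr93a, a gustatory receptor gene, had the most members of any protein-coding gene, 7, with signals of 218 to 1285. Its members lay on both sides of the gene, 4 of them 1937 to 4135 bp upstream, and the one 3337 bp downstream held the Blimp-1 site. Next came Eaf6, CG11964 and CG13898 with 5 each. These counts are not scaled by allowed sequence, of which Gr93a borders 7.395 kb, CG13898 8.5 kb, and Eaf6 and CG11964 4.5 kb each. CG11964 had its strongest members 1584 and 2913 bp upstream, with signals of 2038 and 1795 (ranks of 390, 638 and 869, and 452, 834 and 1230 in the replicates), and another, of 1101, with the T form of the site. The members of CG13898 had signals of 393 to 898 and none held the site. Osi6, Osi7, CG43245, CG7560, CG7573, CG7484, Rh5, which encodes a photoreceptor opsin, and rpr, the cell death gene reaper, had 4 each. Of these 12 genes, CG11964, Osi7, CG7484 and rpr also had a promoter peak. Among noncoding genes, named after their counts were seen, lncRNA:CR45737 had 7 members and lncRNA:CR44606 had 6.

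The gene lists are compared over the genes that are nearest to any allowed sequence, of which 10.1% had a member. Lists are described by counts only, since they were written with earlier results of these data known, and their genes differ in how much allowed sequence they border. The Osiris genes, which encode a clustered family of transmembrane proteins expressed in cuticle-forming cells, and the Tweedle genes of structural cuticle proteins, had 11 of 44 genes nearest to a member (25%). These genes had 21 members with a median signal of 991, against 409 over all members. Of the 21, 5 held the Blimp-1 site, against 6.64% of all members and 12.0% of the strongest 25% of members. The gap between Osi5 and Osi6 alone held 5 of the 21, so these are not independent. The member of TwdlE had a signal of 3206 (ranks 193, 236 and 347 in the replicates), 1090 bp upstream. The strongest of Osi6 had 3202 (226, 253 and 248), 3092 bp upstream, and the strongest of Osi5 had 1815 (857, 590 and 567), with the site. Osi7 had 1562 (1110, 748 and 790), also with the site. In the replicates 10, 11 and 11 genes of the list were nearest to a member.

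Genes of chitin synthesis and apical matrix assembly had 7 of 21 (33.3%) nearest to a member, with 13 members of median signal 756. Cda4, a chitin deacetylase gene, had 3, the strongest with a signal of 2147 (ranks 490, 376 and 748 in the replicates). Cht7, a chitinase gene, had a member of 1840 (491, 746 and 980) with the site, 1458 bp upstream. Peritrophin-A, which encodes a chitin-binding protein, had one of 1341 (793, 1373 and 1514), and dyl, a zona pellucida domain gene, had 3, the strongest of 1224 (1179, 1098 and 1706). Zona pellucida and denticle genes, a list that also holds dyl, had 2 of 12 (16.7%), the other being nyo. The larger Cpr family of cuticle proteins had 12 of 80 (15%), led by Cpr78Ca with a signal of 1115 and Edg84A with 976, then Ccp84Ag with 881 and Cpr65Eb with 630. Of these 4, Cpr78Ca and Ccp84Ag held the site.

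Genes of Wnt, Hedgehog, Dpp and EGF signalling had 9 of 18 (50%), led by aop, an ETS-domain repressor gene, with a signal of 1979 (ranks 807, 474 and 467 in the replicates), by kek1, an inhibitor of the EGF receptor, with 892, by Wnt6 with 499 and by the Wnt receptor gene fz with 496. In the tracheal list 8 of 19 genes (42.1%) were nearest to a member. They were led by aop and by kni, which encodes a zinc finger repressor, with 881 (2032, 1709 and 2582). The transcription factor gene ttk had 827 (1479, 3825 and 2676) and verm, a chitin deacetylase gene of the tracheal lumen, had 756 (1968, 2851 and 2998). Hox and segmentation genes had 7 of 28 (25%), led by slp2 with 2614 (375, 325 and 335), kni, slp1 with 556 and hry with 350. Genes such as aop, kni, verm and wg stand in more than 1 list.

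Ecdysone response genes had 4 of 14 (28.6%), namely Hr38 with a signal of 10578, ImpE1 with 481, Eip63E with 255 and Eip78C with 248. Hemocyte and fat body genes had 3 of 12 (25%), namely Sr-CI with 989, srp with 561 and Fbp1 with 248. Muscle genes had 4 of 20 (20%), namely Act88F, an actin gene of flight muscle, with 5009 (ranks 106, 73 and 85 in the replicates), bin with 1402, Act87E with 947 and Act57B with 784. Gut and endoderm genes had 4 of 20 (20%), namely srp, Amy-p with 382, wg with 345 and peb with 311. Septate junction genes had 2 of 11 (18.2%), namely nrv1 with 861 and bark with 319. Innate immunity and heat shock genes had 2 of 13 (15.4%), namely spz, which encodes the Toll ligand, with 3309 (194, 275 and 228), and PGRP-SA with 824. Notch pathway genes had 2 of 13 (15.4%), namely E(spl)malpha-BFM with 1521 and mib1 with 328.

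The remaining lists lay near or below the share of all genes. Ddc, the dopa decarboxylase gene of cuticle tanning, with a signal of 415, was the only one of 9 tanning and wound response genes (11.1%). Homeobox and other regulator genes had 3 of 29 (10.3%), namely bin, D with 710 and SoxN with 668, the last with the Blimp-1 site. VGlut, the vesicular glutamate transporter gene, with 268, was the only one of 13 neuronal genes (7.69%). None of 30 cytosolic ribosomal protein genes was nearest to a member, and 1 was nearest to a peak of the class in replicate 1. No germ line gene was either, but only 4 of the 14 in that list border allowed sequence, too few for a lower share to be detectable.

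Per Mb of allowed sequence nearest to their genes, 14 lists had more members than the 74.1 over all allowed sequence. Chitin and matrix genes had 277 per Mb (13 members), and Wnt, Hedgehog, Dpp and EGF genes 271 (14 members). Osiris and Tweedle genes had 226 (21 members) and tracheal genes 196 (10 members). Hemocyte and fat body genes had 272, but from only 4 members in 0.0147 Mb of allowed sequence. Neuronal genes had 64.8, Hox and segmentation genes 59.7, and homeobox and other regulator genes 36.9 per Mb, so that the Hox list lay above all genes by its share and below them by its density.

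**Figure D5:**
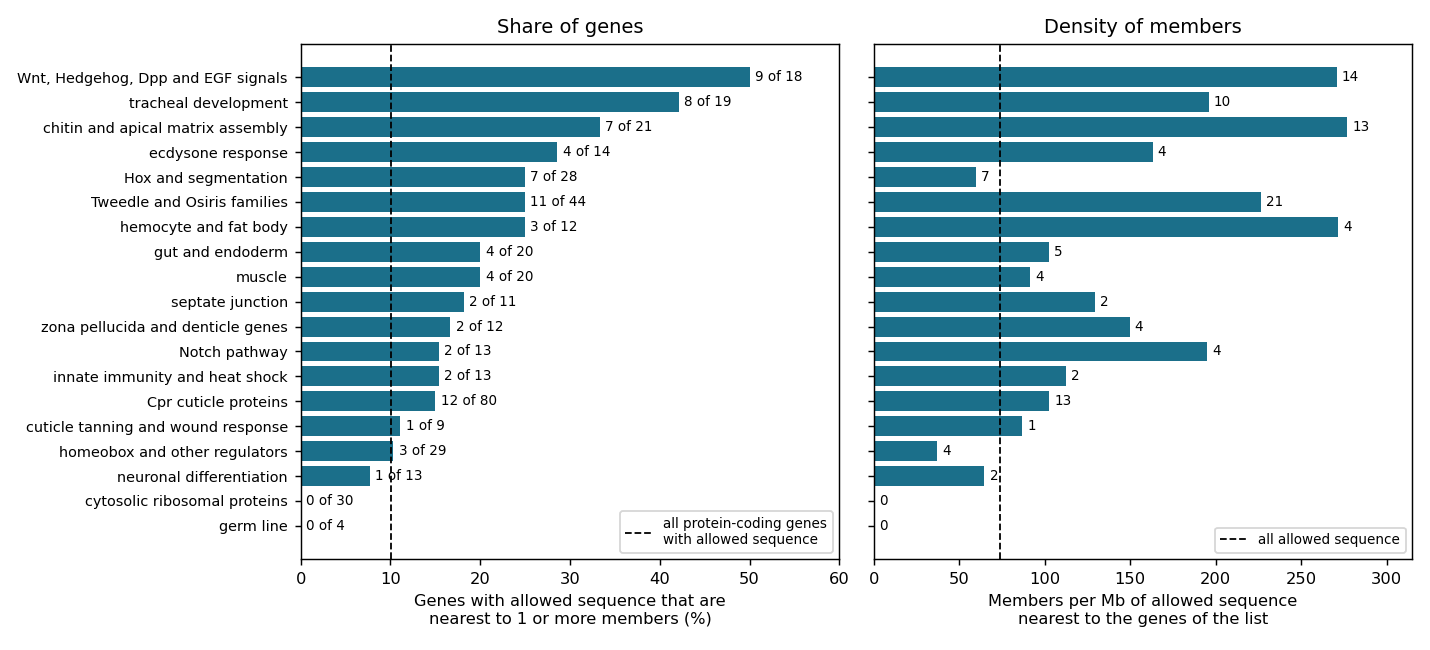
Left, percentage of the genes with allowed sequence in each list that are nearest to 1 or more members (horizontal axis), with counts of genes beside the bars and a dashed line at the share of all such protein-coding genes, 10.1%; right, members per Mb of allowed sequence nearest to the genes of the list, with counts of members and a dashed line at 74.1 per Mb over all allowed sequence. Signalling genes stand highest by share at 50%, chitin and matrix genes by density at 277 per Mb, and the germ line bar at 0 rests on 4 genes.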

How the data were processed

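Per the deposited notes, the authors aligned reads to dm6 and called peaks in each replicate, and in the 3 together, against 1 shared control alignment. No source used here names the aligner, the peak caller or the IDR threshold. Each deposited list gives per peak a signal value, a −log10 q-value (read but not used to rank) and the offset of the summit. The replicate and pooled lists held 30000 peaks each. Peak lists hold no read counts, so depth is unknown and intervals cover counting error over peaks only. Replicates are labelled biological, and nothing more is said of their origin.

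Summits were classed with Ensembl release 115 gene models on the same assembly, and RefSeq sequence was read around them, in Python 3.11.15 with NumPy 2.4.6, pandas 2.3.3, SciPy 1.17.1 and matplotlib 3.10.9. Coordinates are 1-based. Shares were compared by two-sided Fisher's exact tests and summit windows with flanks by exact McNemar tests, with Benjamini-Hochberg adjustment within each family. Peaks are not independent replicates, so the p-values describe these lists. Means ± SD are over the 9515 strongest peaks in each of the 3 replicate lists, and summits within 100 bp counted as matched. The code was tested on simulated sequences with planted words.

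The members and the lists were chosen with earlier results of these data known. Of 408 gene names and 9 name stems, 16 were followed to a current symbol through RefSeq synonyms, and 8 matched no protein-coding gene. Named are the 10 strongest members found in all replicates, the 10 strongest with the site, members next to Blimp-1 or ftz-f1, those at the distance limits, the 10 protein-coding genes with most members and 2 tied with the last of them, and per list every nearest gene where there were 5 or fewer and otherwise the 4 with the strongest member. Sequences from 1 chromosome arm were not printed. Alternatives varied the annotation, distance limits, windows, flank, strength, matching distance and replicates.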

Additional observations from a re-analysis of the deposited data

How the results depend on the processing

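Of 88 results recomputed under alternatives, 62 were classed as unchanged, 9 passed a test only under the alternative, 7 crossed 1 or changed direction without passing a test, and 10 counts or values moved. For tested results, unchanged means the same direction and side of the threshold. Untested counts classed as unchanged could still shift. Members numbered 908 to 929 with a replicate left out, against 1204. Nearest protein-coding genes numbered 777 with TSSs of protein-coding genes only, against 607. The ratio of Blimp-1 sites at summits to flanks stayed between 5.45 and 11.4 and past the threshold in all 10 alternatives, and the excess of sites in the strongest 25% passed in all 6. The odds ratio of being matched in all replicates, for members against other peaks, was 1.15 with summits within 50 bp (Fisher's exact p = 0.0470) and 0.998 with the strongest peaks of each replicate. That of being in the strongest 10% was 0.708 against all other peaks, promoters included (Fisher's exact p = 0.00238), 1.16 with an upper limit of 2 kb and 1.14 with protein-coding genes only. For the site, the odds ratio against introns was 1.04 within 25 bp, 1.04 in the stronger 50% of the list and 0.961 to 1.02 with a replicate left out. Against peaks beyond 5 kb it was 2.18 within 25 bp and 1.66 within 100 bp. Against promoters it was 1.58 within 25 bp, 1.32 within 100 bp, 1.69 in the stronger 50% (adjusted Fisher's exact p = 0.0130), 1.46 with protein-coding genes only (adjusted p = 0.0449) and 1.42 to 1.54 with a replicate left out, where only the value without replicate 2 passed (adjusted p = 0.0221); both windows passed too. In the stronger 50%, 36 words of 6 letters were higher and 15 lower, and 335 protein-coding genes were nearest to a member. With a replicate left out, 70 to 96 words were higher and 61 to 98 lower. Both settings test fewer peaks. Median GC content was 35.8% within 100 bp. No paired analysis was possible because there is 1 group.

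The lists give no depth, the signal scale is undefined, and replicates share a control alignment. Nearest genes are positions in a whole embryo of mixed tissues, and members in the same gap are not independent.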

Other observations

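Members were unevenly spread along the arms. Of 138 windows of 1 Mb, 117 held a member, with a median of 7. The window from 11 to 12 Mb on arm 3L held the most, 46 members in 195 kb of allowed sequence, and the replicates had 44, 42 and 46 peaks of the class there. CG7560 and CG7573, which each had 4 members, lie in this window. The windows from 14 to 15 Mb on 2L and from 0 to 1 Mb on 3L held 38 each (36, 36 and 38, and 36, 40 and 32 in the replicates). The window from 6 to 7 Mb on 3R, which holds the Osiris genes, had 30 (37, 30 and 32). These windows were picked for their counts, and no test was made.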
